A study of Mus musculus with 18 samples.

Results

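Coenzyme A is built in every cell from pantothenate (vitamin B5), and the 7 mouse genes that encode this route were followed across fat depots: the pantothenate kinase genes Pank1, Pank2, Pank3 and Pank4, and Ppcs, Ppcdc and Coasy, which encode the later steps. They were taken by symbol from 52093 symbols, and all 7 had an entry. Pank1, Pank4 and Ppcdc had 2 entries each, and the entry used was chosen by its mean level over the 18 samples, in RPKM, a read count scaled to transcript length and library size. The choice used no difference between tissues.

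The samples came from male wild-type mice fed HFD, a high-fat diet, over 12 weeks. The strain label reads C57BL/6, the extraction protocol C57BL/6J and the study's supplement C57BL/6NTac, so the substrain was not settled. The treatment label of all 18 samples reads regular chow, while the sample titles and the extraction protocol give HFD. RNA was sequenced from 6 samples each of inguinal white adipose tissue (iWAT) adipocytes, epididymal white adipose tissue (eWAT) adipocytes and brown adipose tissue (BAT). The white adipocytes were the floating cells left after collagenase digestion. BAT is labelled as adipocytes, but the protocol describes frozen whole tissue, so it also holds blood vessels, blood, nerve and adjacent muscle. The labels hold no age, and the supplement gives the mice as 16 weeks old. No group differed in genotype or diet, and the numbers in the sample titles are used here as mouse numbers. BAT was also sequenced in other lanes than the white adipocytes, so depot, cell isolation and lane cannot be told apart in any comparison with BAT. The white depots shared their lanes, but with unequal numbers of samples in each.

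Pantothenate kinase adds the phosphate that commits pantothenate to the pathway, and coenzyme A and its thioesters inhibit the enzyme, so this step sets the pace of synthesis. Ppcs joins cysteine to phosphopantothenate, Ppcdc removes the carboxyl group, and Coasy carries the closing adenylyl transfer and kinase steps. The coenzyme carries acetyl and fatty acyl groups. Brown fat, which burns fatty acids to make heat, and white fat, which stores them, both depend on it. PANK4 protein lacks pantothenate kinase activity in mammals, and loss of human PANK2 causes neurodegeneration with brain iron.

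The kinase genes also carry microRNAs in their introns. In GENCODE vM1 (build NCBIM37, which is mm9), Mir107 lies at chr19:34895177-34895263 within Pank1, Mir103-1 at chr11:35595898-35595983 within Pank3 and Mir103-2 at chr2:131113788-131113873 within Pank2. Each lies on the strand of its host and overlaps no exon. The mature 3p forms, from RefSeq, are shown because the same short RNA family sits in the 3 kinase genes, with bases 2 to 8, the seed, in capitals.
mmu-miR-103-3p: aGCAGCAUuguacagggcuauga
mmu-miR-107-3p: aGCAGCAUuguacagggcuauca
The seed is shared and the only difference is G22C, written with the base of miR-103-3p first and counted from the 5′ end. MicroRNA levels were not analysed here, and a host transcript's level is not that of its microRNA.

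Pank1 had the largest contrast of the family, and its start region is therefore shown. Its 8-exon entry covers chr19:34885384-34953945 on the minus strand, with a transcript length of 5516 bases. GENCODE vM1 gives 3 coding transcripts, which differ in their opening exon and share the following ones. RefSeq promoter windows run from 250 bases before to 50 after a start and were available for 6 of the 7 genes, in 9 windows, but not for Coasy. Their place in NCBIM37 was found by exact match. The Pank1 windows begin transcripts at the start of the 8-exon entry and 1538 bases inside it. For Pank3, the main kinase of white adipocytes below, the window starts transcription 11 bases inside its entry. Capitals mark matches, on either strand, to TATAAA or to CCAAT or to GGGCGG.
Pank1, chr19:34953896-34954195, minus strand: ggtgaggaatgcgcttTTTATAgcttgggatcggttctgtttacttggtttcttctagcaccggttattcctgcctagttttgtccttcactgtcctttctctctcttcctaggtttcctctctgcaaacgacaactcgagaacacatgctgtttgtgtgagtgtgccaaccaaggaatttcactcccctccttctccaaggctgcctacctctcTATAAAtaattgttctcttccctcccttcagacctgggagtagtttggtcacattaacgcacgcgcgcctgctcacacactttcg
Pank1, chr19:34952358-34952657, minus strand: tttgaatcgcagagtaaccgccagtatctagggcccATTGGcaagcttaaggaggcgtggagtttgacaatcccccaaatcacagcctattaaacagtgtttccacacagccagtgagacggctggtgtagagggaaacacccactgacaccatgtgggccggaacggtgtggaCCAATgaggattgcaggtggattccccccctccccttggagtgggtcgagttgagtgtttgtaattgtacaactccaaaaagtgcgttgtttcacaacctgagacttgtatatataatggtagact
Pank3, chr11:35582747-35583046, plus strand: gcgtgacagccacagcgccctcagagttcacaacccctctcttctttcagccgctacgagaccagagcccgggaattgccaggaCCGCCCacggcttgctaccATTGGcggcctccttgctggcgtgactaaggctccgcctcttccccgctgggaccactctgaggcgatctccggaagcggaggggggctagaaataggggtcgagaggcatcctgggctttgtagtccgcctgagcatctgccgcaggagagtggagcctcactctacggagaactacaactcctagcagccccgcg
The windows differ in composition. The upstream Pank1 window has a GC content of 48.0% with 10 CpG and the inner one 49.7% with 8 CpG, against 63.0% with 20 CpG for Pank3 and a median of 52.7% over all 32851 windows of this length. The upstream Pank1 window is the only one of the 9 with TATAAA, a motif that 13.6% of all windows hold. CCAAT stands in 5 of the 9 windows (37.4% of all) and GGGCGG, read on either strand, also in 5 (35.7% of all). AGGTCA stands in 2 windows, those of Ppcs and Ppcdc (16.3% of all). The searches for CACGTG (7.15% of all) and for TGACGTCA (1.79% of all) found no match. Neither did those for TCAAGGTCA (0.423% of all) and for the direct repeat of AGGTCA with 1 base between (0.0396% of all), which both contain AGGTCA.

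Across the depots, the kinase transcript that led in brown fat was the lowest of the pathway by its mean in white adipocytes. Pank1 in BAT ranged from 33.3 to 53.8 RPKM (median 44.2). In iWAT adipocytes it ranged from 0.524 to 0.814 RPKM (median 0.640), and in eWAT adipocytes from 0.600 to 0.714 RPKM (median 0.668). Each of the 6 BAT samples was thus far above each white adipocyte sample, while the ranges of the white depots overlapped. Mean levels were 44.1 ± 7.95 RPKM in BAT, 0.659 ± 0.10 RPKM in iWAT adipocytes and 0.662 ± 0.0485 RPKM in eWAT adipocytes (SD, n = 6), a ratio of RPKM means of 66.9 and 66.6. Behind them stood 4213 to 11439 reads in BAT and 79 to 162 in the white adipocytes.

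Differences in read counts were tested by the quasi-likelihood method of edgeR (two-sided, n = 6 per tissue), with TMM scaling, which sets the bulk of genes to be equal between samples, and Benjamini-Hochberg adjustment over all genes. By this test Pank1 was 101-fold higher in BAT than in iWAT adipocytes (log2 fold change of iWAT adipocytes over BAT -6.66, SE 0.14, adjusted p = 2.2e-14). It was 99.6-fold higher than in eWAT adipocytes (-6.64, SE 0.13, adjusted p = 1.7e-14). White depots differed in Pank1 by 0.00 (SE 0.11, edgeR adjusted p = 0.98). These folds exceed the RPKM ratios, which carry no TMM factor. The TMM factors averaged 1.35 and 1.37 in the white adipocytes and 0.745 and 0.732 in BAT in those comparisons. They apply to total counts, so the step from the RPKM ratios to these folds does not follow from them alone. Scaled by total count alone, the median gene had a log2 fold change of 0.87 for iWAT adipocytes over BAT and 0.89 for eWAT adipocytes over BAT, and Pank1 had -5.81 and -5.74.

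**Figure D1:**
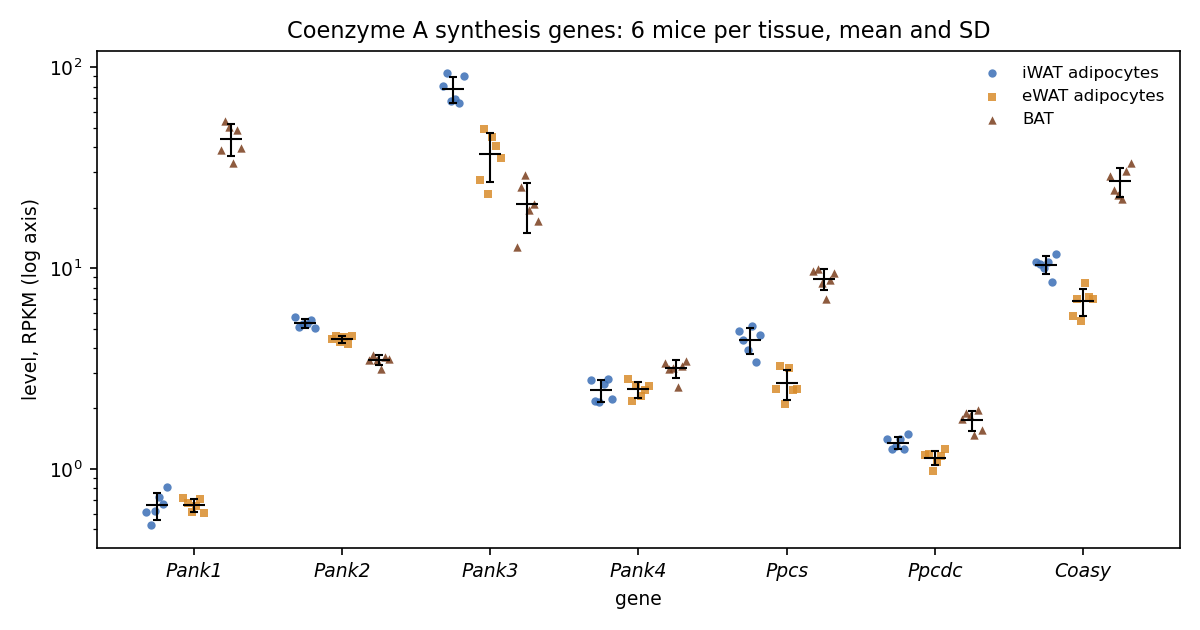
Level of each coenzyme A synthesis gene (RPKM, log axis) in each sample of iWAT adipocytes (circles), eWAT adipocytes (squares) and BAT (triangles), with mean and SD over 6 samples. Pank1 in BAT, at 33.3 RPKM or more, sits above all white adipocyte samples, at 0.814 RPKM or less, and Pank3 is highest in iWAT adipocytes.

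Muscle RNA differed widely between the BAT samples. The summed level of 6 skeletal muscle markers was 1.61 to 112 RPKM in BAT, 4.33 to 16.9 RPKM in iWAT adipocytes and 1.27 to 4.94 RPKM in eWAT adipocytes. In order of that sum, the BAT samples of mice 2, 17, 18, 16, 1 and 5 had 1.61, 17.1, 62.9, 78.6, 88.1 and 112 RPKM, and Pank1 at 53.8, 48.8, 39.6, 33.3, 38.8 and 50.1 RPKM. The highest Pank1 levels thus stood at both ends of the order. With only the BAT samples of mice 2 and 17 kept, which had the lowest muscle sums, the log2 fold changes were -6.81 for iWAT adipocytes over BAT and -6.82 for eWAT adipocytes over BAT. The part of muscle RNA in the BAT level of Pank1 was not tested. The summed level of 6 brown adipocyte markers, Ucp1 among them, was 2936 to 4300 RPKM in BAT, 31.9 to 50.3 RPKM in iWAT adipocytes and 6.60 to 17.9 RPKM in eWAT adipocytes, so the tissue labels matched their defining markers. In bulk RNA, fewer cells of a type and less RNA per cell cannot be told apart.

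The other Pank1 entry in the files is a single exon of 3766 bases on the plus strand, at chr19:34952682-34956447. It shares 1264 bases with the start of the 8-exon entry, including the opening exon of a coding transcript, and runs 2502 bases beyond it. It had 4.42 ± 2.13 RPKM in BAT (SD, n = 6) and 3 to 16 reads in any white adipocyte sample. Per 100 reads of the 8-exon entry it held 4.97 to 10.8 reads in BAT, 2.70 to 10.1 in iWAT adipocytes and 3.45 to 11.7 in eWAT adipocytes. These ranges overlap, so the small entry followed the large one across tissues. How reads were assigned to strands is not given in the sources used here, and reads of the shared bases cannot be told apart.

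**Figure D2:**
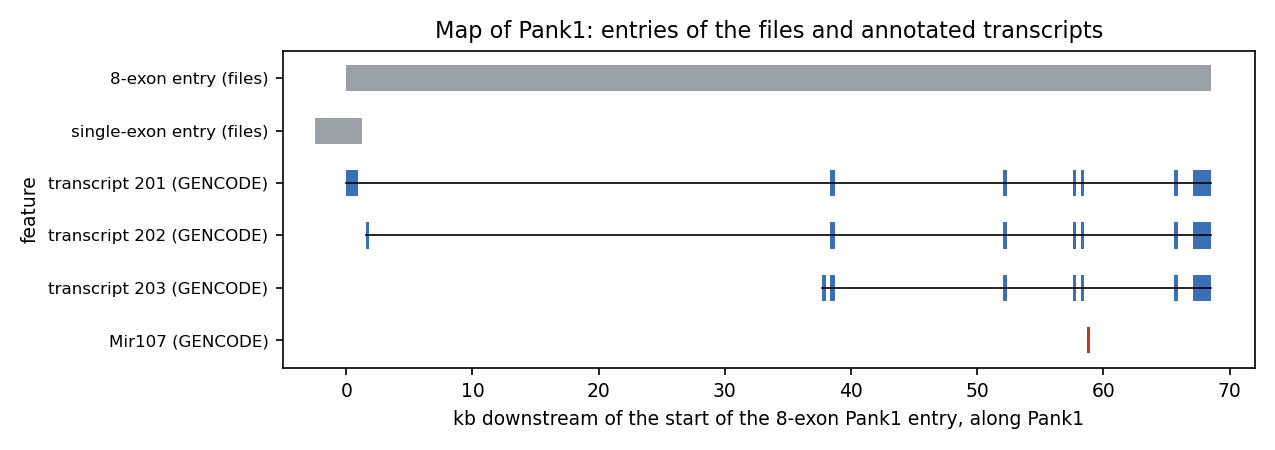
Map of Pank1 along the gene, in kb downstream of the start of the 8-exon entry, with the 2 entries of the files (grey), the exons of 3 GENCODE vM1 coding transcripts (blue) and Mir107 (red). The single-exon entry runs 2502 bases beyond the start, and the coding transcripts differ in their opening exon.

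Pank3, which encodes a cytosolic kinase, had its highest RPKM mean in iWAT adipocytes and its lowest in BAT. It ranged from 66.1 to 93.1 RPKM in iWAT adipocytes (median 75.0), from 23.3 to 49.3 RPKM in eWAT adipocytes (median 38.0) and from 12.8 to 28.9 RPKM in BAT (median 20.2). The iWAT adipocytes did not overlap with the other tissues, whereas eWAT adipocytes and BAT overlapped. Pank3 was 2.13-fold higher in iWAT than in eWAT adipocytes (log2 fold change 1.09, SE 0.19, edgeR adjusted p = 0.00019). Against BAT it was 2.46-fold higher in iWAT adipocytes (1.30, SE 0.18, edgeR adjusted p = 8.8e-06). That value was 2.16 by total count alone (adjusted p = 3.8e-09) and 1.94 in limma on log2(RPKM + 0.1) (adjusted p = 6.0e-08). For eWAT adipocytes over BAT the log2 fold change was 0.23 (SE 0.21, edgeR adjusted p = 0.32). It too moved with the scaling, to 1.15 by total count alone (adjusted p = 4.6e-05) and to 0.83 in limma (adjusted p = 0.0022).

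The eWAT samples with the least Pank3 were those with the least adipocyte RNA. Ordered by the summed level of 4 adipocyte markers (Adipoq, Plin1, Lep and Cidec), mice 3, 1, 16, 5, 4 and 2 had sums of 516, 703, 1303, 1644, 1729 and 1812 RPKM. In the same order, Pank3 was at 23.3, 27.5, 35.5, 40.5, 45.1 and 49.3 RPKM, so both stood in the same order. In those 6 samples the summed level of 7 macrophage markers ran from 2605 to 4186 RPKM and was highest in mice 1 and 3, against 460 to 909 RPKM in iWAT adipocytes and 25.4 to 50.6 RPKM in BAT. Per 1000 RPKM of adipocyte marker sum, Pank3 was at 20.4 to 25.7 RPKM in iWAT adipocytes (median 24.5), 24.7 to 45.1 in eWAT adipocytes (median 27.2) and 17 to 40.6 in BAT (median 28.6). The depots overlapped on that measure, whose divisor also differed between them, with a median of 3323 RPKM in iWAT adipocytes, 1474 RPKM in eWAT adipocytes and 732 RPKM in BAT. With the eWAT samples of mice 1 and 3 left out, Pank3 had a log2 fold change of 0.87 for iWAT over eWAT adipocytes (edgeR adjusted p = 0.00025) and of 0.46 for eWAT adipocytes over BAT (adjusted p = 0.040), a comparison it then passed. The part of cell makeup in the depot difference was not tested.

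Pank2, the kinase linked to brain iron disease in people, moved within a narrow band. It ranged from 5.06 to 5.71 RPKM in iWAT adipocytes, from 4.16 to 4.60 RPKM in eWAT adipocytes and from 3.14 to 3.67 RPKM in BAT, with coefficients of variation of 4.78%, 4.03% and 5.30%. No pair of tissues overlapped on the RPKM scale. It was higher in iWAT than in eWAT adipocytes (log2 fold change 0.27, SE 0.05, edgeR adjusted p = 0.00022). Against BAT its direction turned with the scaling: for eWAT adipocytes over BAT, the log2 fold change was -0.24 (SE 0.06, edgeR adjusted p = 0.0010) with TMM, 0.67 (adjusted p = 9.2e-07) by total count alone and 0.34 (adjusted p = 0.00036) with limma on log2(RPKM + 0.1). With a replicate block on mouse number it was -0.25 (edgeR adjusted p = 0.059). For iWAT adipocytes over BAT it was -0.00 with TMM (edgeR adjusted p = 0.94) and 0.85 by total count alone (adjusted p = 5.0e-08). Its entry shares 1772 bases with Rnf24 on the other strand.

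Pank4, which encodes the family member without kinase activity, was low in each tissue. It ranged from 2.14 to 2.81 RPKM in iWAT adipocytes, from 2.17 to 2.81 RPKM in eWAT adipocytes and from 2.56 to 3.47 RPKM in BAT, and all 3 ranges overlapped. The log2 fold change was -0.01 between the white depots (SE 0.08, edgeR adjusted p = 0.91), -0.97 for iWAT adipocytes over BAT (SE 0.08, adjusted p = 2.4e-08) and -0.93 for eWAT adipocytes over BAT (SE 0.08, adjusted p = 4.9e-08). By total count alone the differences with BAT were -0.11 and -0.02, with edgeR adjusted p of 0.37 and 0.85.

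Between white adipocytes and BAT, kinase RNA summed over the 4 genes differed far less in RPKM than its makeup did. Between the white depots Pank3 led in both, while the sums did not overlap. They ran from 75.05 to 100.9 RPKM in iWAT and from 30.78 to 56.73 RPKM in eWAT adipocytes. The summed level was 86.3 ± 11.6 RPKM in iWAT adipocytes, 44.5 ± 9.98 RPKM in eWAT adipocytes and 71.5 ± 12.9 RPKM in BAT (SD, n = 6). Pank3 made up 90.1 ± 1.65% of it in iWAT adipocytes and 82.1 ± 4.58% in eWAT adipocytes, but 28.8 ± 4.47% in BAT. Pank1 made up 0.776 ± 0.151% and 1.55 ± 0.360% in the white depots, in that order, and 61.7 ± 3.49% in BAT. These shares are taken within a sample and do not move with the scaling between samples. The sums do, and their order between iWAT adipocytes and BAT was not tested with TMM. For Pank2 the ratio of iWAT adipocytes over BAT was 1.52 by RPKM means and 0.997 with TMM. The sums also count Pank4, which encodes the member without kinase activity. The ratio of Pank1 to Pank3 ran from 1.70 to 3.04 in BAT and from 0.00563 to 0.0262 in the white adipocytes, so Pank1 exceeded Pank3 in 6 of 6 BAT samples and in none of the 12 white adipocyte samples. Counted as reads without division by transcript length, Pank1 still held 52.0% of the kinase reads in BAT and 0.487% and 1.01% in iWAT and eWAT adipocytes.

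**Figure D3:**
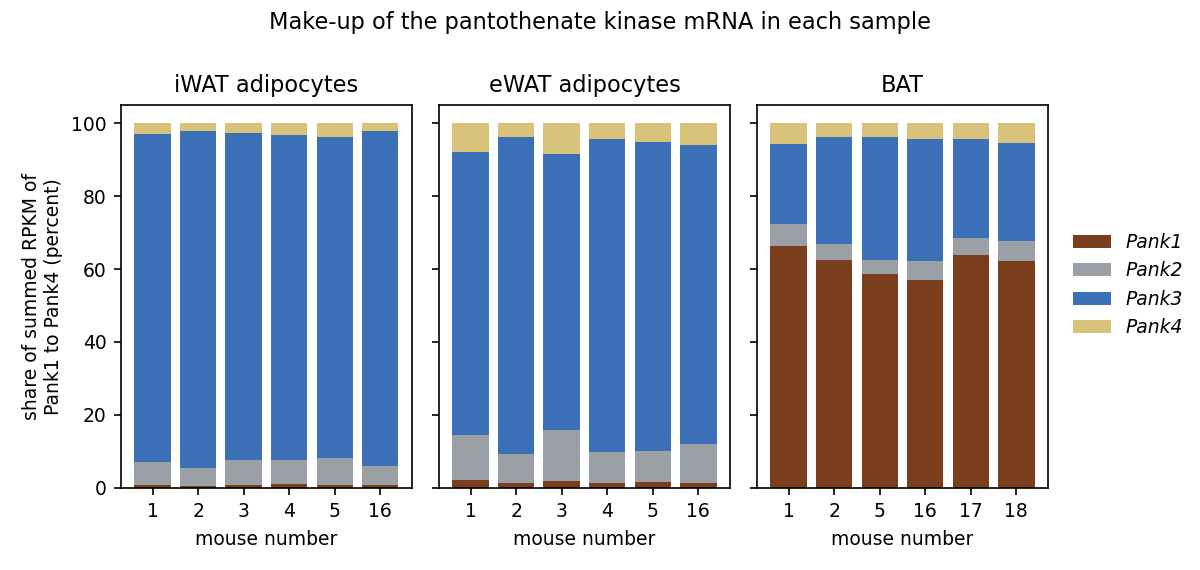
Share of each pantothenate kinase gene in the summed RPKM of Pank1 to Pank4 (percent, stacked bars), by mouse, for iWAT adipocytes, eWAT adipocytes and BAT. Pank3 makes up 75.6% or more in each white adipocyte sample, and Pank1 makes up 56.9% to 66.4% in BAT.

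The genes after the kinases shared an order among the depots, highest in BAT and lowest in eWAT adipocytes by their means. Coasy, the closing enzyme, ranged from 22.04 to 33.3 RPKM in BAT (median 26.7), from 8.53 to 11.8 RPKM in iWAT adipocytes (median 10.6) and from 5.48 to 8.46 RPKM in eWAT adipocytes (median 7.03). No pair of depots overlapped. Coasy was 3.96-fold higher in BAT than in iWAT adipocytes (log2 fold change of iWAT adipocytes over BAT -1.98, SE 0.11, edgeR adjusted p = 1.9e-10) and 5.95-fold higher than in eWAT adipocytes (-2.57, SE 0.12, adjusted p = 2.0e-11). It was 1.53-fold higher in iWAT than in eWAT adipocytes (0.61, SE 0.12, edgeR adjusted p = 0.00043).

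Ppcs, the cysteine-joining step, ranged from 7.04 to 9.85 RPKM in BAT (median 9.06), from 3.41 to 5.17 RPKM in iWAT adipocytes (median 4.51) and from 2.096 to 3.26 RPKM in eWAT adipocytes (median 2.50). Again no pair of depots overlapped. It was 3.05-fold higher in BAT than in iWAT adipocytes (log2 fold change of iWAT adipocytes over BAT -1.61, SE 0.10, edgeR adjusted p = 1.3e-09) and 4.99-fold higher than in eWAT adipocytes (-2.32, SE 0.11, adjusted p = 2.0e-11). It was 1.66-fold higher in iWAT than in eWAT adipocytes (0.73, SE 0.14, edgeR adjusted p = 0.00036). Coasy and Ppcs stayed higher in BAT by total count alone, with -1.14 and -0.76 for iWAT adipocytes over BAT and -1.67 and -1.41 for eWAT adipocytes over BAT, all past the threshold.

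Ppcdc, the decarboxylase, was the lowest of the later enzymes. It ranged from 1.47 to 1.97 RPKM in BAT, from 1.25 to 1.49 RPKM in iWAT adipocytes and from 0.978 to 1.26 RPKM in eWAT adipocytes, and BAT and eWAT adipocytes did not overlap. The log2 fold change was -0.97 for iWAT adipocytes over BAT (SE 0.08, edgeR adjusted p = 2.8e-08), -1.20 for eWAT adipocytes over BAT (SE 0.08, adjusted p = 2.8e-09) and 0.26 for iWAT over eWAT adipocytes (SE 0.08, adjusted p = 0.013). By total count alone these were -0.12 (edgeR adjusted p = 0.29), -0.30 (adjusted p = 0.020) and 0.18 (adjusted p = 0.063). Without the eWAT samples of mice 1 and 3 the difference between white depots was 0.20 (edgeR adjusted p = 0.060). Its entry runs past the GENCODE vM1 gene, which holds 50.7% of the entry's extent.

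Per 1000 RPKM of adipocyte marker sum, Coasy was at 30.2 to 50.8 RPKM in BAT, against 2.72 to 3.40 RPKM in iWAT and 3.87 to 10.6 RPKM in eWAT adipocytes. Ppcs was at 10.6 to 14.4 RPKM in BAT, against 1.14 to 1.55 RPKM in iWAT and 1.51 to 4.06 RPKM in eWAT adipocytes. Between the white depots the order turned on this measure. The median was 3.18 RPKM in iWAT and 5.15 RPKM in eWAT adipocytes for Coasy, and 1.29 and 1.87 RPKM for Ppcs. Because the marker sum was itself lowest in BAT and highest in iWAT adipocytes by its median, the ratio is raised in BAT by construction. It is lowered in iWAT adipocytes likewise, and says nothing more of the differences. Without the eWAT samples of mice 1 and 3, Coasy had a log2 fold change of 0.48 for iWAT over eWAT adipocytes. Ppcs had 0.62, with edgeR adjusted p of 0.0019 and 0.0026 in that order. The part of cell makeup was not tested. The summed kinase level per Coasy level was 2.73 ± 0.749 in BAT, against 8.34 ± 0.853 in iWAT and 6.48 ± 0.855 in eWAT adipocytes (SD, n = 6).

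By level, Pank3 led in both white depots, followed by Coasy, Pank2, Ppcs, Pank4, Ppcdc and Pank1 in iWAT adipocytes, where the ranges of Pank2 and Ppcs overlapped. In eWAT adipocytes the order was the same, except that Ppcs exceeded Pank4 in 3 of 6 samples. In BAT, Pank1 led and was followed by Coasy, Pank3, Ppcs, Pank2, Pank4 and Ppcdc. There Coasy exceeded Pank3 in 4 of 6 samples, and the ranges of Pank2 and Pank4 overlapped although Pank2 was the higher in 6 of 6. The comparison of levels between genes is in RPKM, which divides by transcript length.

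Set against the whole transcriptome, the share of pathway genes that differed was near the background. All 7 genes passed the filter on reads in every comparison. White depots differed in 5 of 7, all higher in iWAT adipocytes, while 68.6% of the 19623 genes tested differed, 34.1% higher in iWAT and 34.5% in eWAT adipocytes. For iWAT adipocytes over BAT the test called 6 of 7, with 1 higher in iWAT adipocytes and 5 in BAT, against 75.3% of 19745 genes (38.1% and 37.2%). For eWAT adipocytes over BAT it called 6 of 7, with 0 higher in eWAT adipocytes and 6 in BAT, against 82.5% of 20076 genes (41.1% and 41.4%). RPKM ranges did not overlap for 4, 5 and 5 genes, where 44.0%, 65.3% and 68.4% of all genes had ranges that did not overlap. The comparisons share samples and are not independent of each other.

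**Figure D4:**
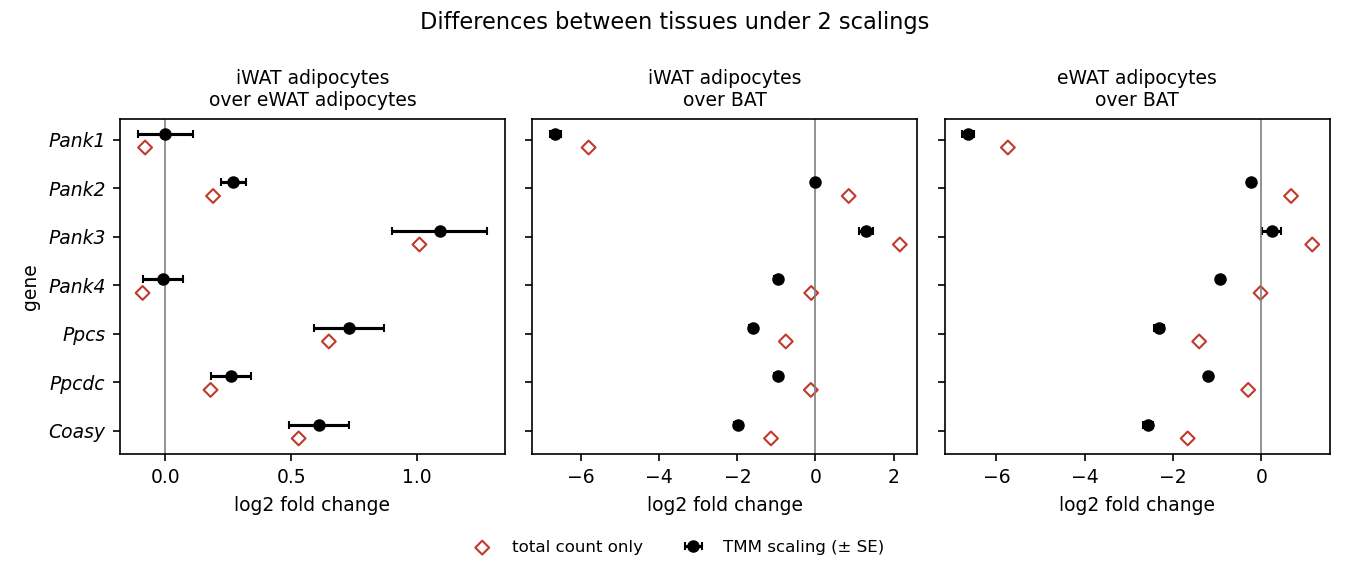
Log2 fold change of each gene in the 3 tissue comparisons, with TMM scaling (filled circles, bars are SE) and scaled by total count alone (open diamonds). Against BAT, total count alone moves each gene to the right, and Pank2 for eWAT adipocytes over BAT moves from -0.24 to 0.67.

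Genes that move coenzyme A or take pantothenate into cells (4 listed, 4 tested) included a mitochondrial carrier far higher in BAT. Over all genes tested, 37.2% were higher in BAT than in iWAT adipocytes, 41.4% higher in BAT than in eWAT adipocytes and 34.1% higher in iWAT than in eWAT adipocytes, which fell to 15.5%, 20.2% and 29.6% by total count alone. Higher in BAT were 3 of 4 against iWAT adipocytes (median log2 fold change -0.92, against 0.01 over all genes) and 4 of 4 against eWAT adipocytes (-1.31, against -0.02). By total count alone 2 of 4 were higher in BAT in each. Higher than in BAT were then 2 of 4 in iWAT adipocytes, beside 69.4% of all genes. In eWAT adipocytes 0 of 4 were, beside 64.6% of all genes. In iWAT over eWAT adipocytes 4 of 4 were higher in iWAT adipocytes (0.61, against 0.00). Slc25a42, the mitochondrial importer of coenzyme A, had 25.3 ± 8.65 RPKM in BAT, 1.17 ± 0.187 RPKM in iWAT adipocytes and a mean of 0.511 RPKM in eWAT adipocytes. Its log2 fold changes were -5.02 for iWAT adipocytes over BAT, -6.21 for eWAT adipocytes over BAT and 1.21 for iWAT over eWAT adipocytes, with edgeR adjusted p of at most 4.9e-05. Slc25a17, a peroxisomal carrier of coenzyme A, was higher in BAT by -1.34 and -1.68 on that scale. Slc25a16 had 0.73 between the white depots and -0.95 for eWAT adipocytes over BAT. For iWAT adipocytes over BAT its -0.24 (edgeR adjusted p = 0.10) turned to 0.61 by total count alone.

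Genes that break down the coenzyme and recover pantothenate (5 listed, 5 tested) went in opposite directions against BAT. The Nudix hydrolase genes were higher in BAT than in both white adipocyte groups. For iWAT adipocytes over BAT, Nudt7 (peroxisomal) had -1.65, Nudt8 (mitochondrial) -1.73 and Nudt19 -1.20. For eWAT adipocytes over BAT they had -2.64, -1.89 and -1.50, with edgeR adjusted p of at most 4.7e-08 for all 6 values. The pantetheinase genes, whose enzymes release pantothenate, went the other way in iWAT adipocytes, Vnn3 with 4.89 and Vnn1 with 1.64 over BAT. Vnn3 was at 7.27 RPKM in iWAT adipocytes, 2.83 RPKM in eWAT adipocytes and 0.163 RPKM in BAT on average. For eWAT adipocytes over BAT, Vnn3 had 3.53 and Vnn1 0.23 (edgeR adjusted p = 0.51). Vnn1, Vnn3, Nudt7 and Nudt19 were higher in iWAT than in eWAT adipocytes, with 1.43, 1.38, 1.01 and 0.32. Of all genes, 34.1% were higher in iWAT adipocytes. Nudt8 had 0.19 (edgeR adjusted p = 0.23). In each comparison with BAT 3 of 5 were higher in BAT, beside 37.2% and 41.4% of all genes. By total count alone these were again 3 and 3, beside 15.5% and 20.2%. Then 2 of 5 were higher in eWAT adipocytes than in BAT, Vnn1 thus among them, beside 64.6% of all genes. Median log2 fold changes of the list were 1.01 for iWAT over eWAT adipocytes, -1.20 for iWAT adipocytes over BAT and -1.50 for eWAT adipocytes over BAT. Over all genes the medians were 0.00, 0.01 and -0.02. By total count alone the list had 0.93, -0.35 and -0.59, beside -0.08, 0.87 and 0.89 over all genes.

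Proteins that carry the phosphopantetheine arm, and the enzymes that place or load it (7 listed, 7 tested), had 5 of 7 genes higher in BAT in each comparison and 1 of 7 lower, beside 37.2% and 41.4% of all genes higher in BAT. The median log2 fold changes were -0.87 for iWAT adipocytes over BAT and -1.49 for eWAT adipocytes over BAT, beside 0.01 and -0.02 over all genes. By total count alone 3 and 5 were higher in BAT, beside 15.5% and 20.2% of all genes. Lower in BAT were 2 and 2, beside 69.4% and 64.6% of all genes. Fasn, fatty acid synthase, had 946 ± 243 RPKM in BAT, 134 ± 23.0 RPKM in iWAT adipocytes and a mean of 70.2 RPKM in eWAT adipocytes, with log2 fold changes of -3.43 for iWAT adipocytes over BAT and -4.36 for eWAT adipocytes over BAT. Ndufab1, the mitochondrial acyl carrier protein, had -2.49 and -3.37. Aldh1l1, a folate dehydrogenase with a carrier domain, was the exception, with 1.66 and 0.68. Between the white depots 6 of 7 were higher in iWAT adipocytes, beside 34.1% of all genes. These included Aldh1l1 (1.0), Fasn (0.94) and Ndufab1 (0.90), all with edgeR adjusted p of at most 0.012.

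Acyl-CoA synthetase genes (15 listed), which use coenzyme A to activate fatty acids, split in both directions. For iWAT adipocytes over BAT, 7 of 14 tested were higher in BAT and 4 in iWAT adipocytes (7 and 7 by total count alone). For eWAT adipocytes over BAT these were 9 and 4 (8 and 5). Of all genes, 37.2% and 41.4% were higher in BAT. By total count alone 15.5% and 20.2% were, while 69.4% and 64.6% were higher in iWAT and in eWAT adipocytes. The median log2 fold changes of the synthetase genes were -0.78 and -1.56, of which the former was 0.08 by total count alone. Acss1, the mitochondrial acetate enzyme, had -4.21 and -2.76, and Acsm3, a medium-chain enzyme, had -4.12 and -4.86. Slc27a2, which acts on very long chains, was at 12.4 ± 4.07 RPKM in BAT, with at most 3 reads in any white adipocyte sample. Slc27a2 thus passed the filter on reads through BAT alone, and it is counted in the tallies and medians above. Against a floor of 3 reads per sample it was at least 422-fold higher than in iWAT and 410-fold higher than in eWAT adipocytes on the RPKM scale. Acsl5 was higher in BAT (-1.97 and -1.44), while Acsl4, which prefers arachidonate, and Slc27a1 were higher in white adipocytes (1.02 and 0.98 for iWAT adipocytes over BAT, 1.77 and 0.87 for eWAT adipocytes over BAT). Acsl1, the most abundant at 186 RPKM in iWAT adipocytes, 68.7 RPKM in eWAT adipocytes and 148 RPKM in BAT, was higher in BAT than in eWAT adipocytes (-1.69). For iWAT adipocytes over BAT Acsl1 had -0.27 (edgeR adjusted p = 0.14), which turned to 0.58 by total count alone.

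Comparing white depots, 7 of 13 synthetase genes tested were higher in iWAT and 4 in eWAT adipocytes, beside 34.1% and 34.5% of all genes. Acss3 (1.58), Acsm5 (1.58) and Acsl1 (1.45) led in iWAT adipocytes, and Acss1 (-1.43) and Acsl4 (-0.72) in eWAT adipocytes, with edgeR adjusted p of at most 0.00045. Acsm5 also had 1.84 for iWAT adipocytes over BAT. Acsl4 and Acss1 were both lower in iWAT than in eWAT adipocytes, together with the lower macrophage marker sum of iWAT adipocytes given above. The part of macrophage RNA in these differences was not tested.

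Thioesterase genes (15 listed), which release the coenzyme from acyl groups, had 11 tested members, and in each comparison with BAT 9 were higher in BAT, beside 37.2% and 41.4% of all genes. Their median log2 fold changes were -0.89 for iWAT adipocytes over BAT and -1.14 for eWAT adipocytes over BAT. That count fell to 4 and 4 by total count alone, beside 15.5% and 20.2% of all genes. Then 3 and 4 were higher in iWAT and in eWAT adipocytes, beside 69.4% and 64.6% of all genes. Acot11, known as brown fat inducible thioesterase, had 83.1 ± 25.4 RPKM in BAT, 0.611 ± 0.119 RPKM in iWAT adipocytes and a mean of 2.25 RPKM in eWAT adipocytes. Its log2 fold changes were -7.71 for iWAT adipocytes over BAT (edgeR adjusted p = 7.7e-13) and -5.80 for eWAT adipocytes over BAT (adjusted p = 3.7e-12). The mitochondrial Acot13 had -2.77 and -2.54, and Acot2 -2.06 and -2.59, whereas Acot7 was higher in white adipocytes (0.72 and 1.19). Acot1 had -0.57 for iWAT adipocytes over BAT (edgeR adjusted p = 0.18), which turned to 0.24 by total count alone, and 0.83 for eWAT adipocytes over BAT. Acot10 had -0.29 and -0.60, which turned to 0.57 and 0.31 by total count alone. Of the white depots, iWAT adipocytes had 4 thioesterase genes higher and eWAT adipocytes 3, beside 34.1% and 34.5% of all genes. By total count alone these were 3 and 4, beside 29.6% and 38.1%. Acot11 (-1.88) and Acot1 (-1.38) were higher in eWAT adipocytes, and Acot6 (0.57) and Acot2 (0.56) in iWAT adipocytes. Acot1 to Acot6 are related genes, as are Acot9 and Acot10, and how reads that match several genes were counted is not given in the sources used here, so their values are uncertain.

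Transcription regulators linked in the literature to Pank1 or lipid oxidation (10 listed, 10 tested) included large contrasts with BAT. Higher in BAT were 6 of 10 against iWAT adipocytes and 8 of 10 against eWAT adipocytes (5 and 6 by total count alone), and 2 of 10 were lower in each (5 and 3). Over all genes 37.2% and 41.4% were higher in BAT. By total count alone 15.5% and 20.2% of all genes were higher in BAT, and 69.4% and 64.6% lower. The regulators' median log2 fold changes were -1.50 for iWAT adipocytes over BAT and -2.10 for eWAT adipocytes over BAT. Ppara, the fatty acid sensing nuclear receptor that is known to induce Pank1 in liver, had 42.7 ± 8.82 RPKM in BAT, 1.14 ± 0.177 RPKM in iWAT adipocytes and a mean of 0.399 RPKM in eWAT adipocytes. Its log2 fold changes were -5.83 for iWAT adipocytes over BAT (edgeR adjusted p = 2.6e-13) and -7.33 for eWAT adipocytes over BAT (adjusted p = 8.3e-12). The coactivator genes Ppargc1a (-3.62 and -5.30) and Ppargc1b (-4.60 and -4.64) and the glucose-responsive Mlxipl (-3.97 and -5.24) were also higher in BAT. Trp53, the gene of p53, another known activator of Pank1, was higher in white adipocytes (0.31 and 0.70), as was Srebf2 (0.46 and 1.51).

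Pparg, the adipocyte regulator, had -0.55 for iWAT adipocytes over BAT, which turned to 0.31 by total count alone, and -1.65 for eWAT adipocytes over BAT. Srebf1 had -0.13 (edgeR adjusted p = 0.32) for iWAT adipocytes over BAT, which turned to 0.72, and -0.91 for eWAT adipocytes over BAT. Between the white depots 6 of 10 regulators were higher in iWAT adipocytes, led by Ppargc1a (1.70) and Ppara (1.52), beside 34.1% of all genes. Srebf2 (-1.02) and Trp53 (-0.36) were higher in eWAT adipocytes, beside 34.5% of all genes. In that comparison Pank1 had a log2 fold change of 0.00. The part of these regulators in the Pank1 level was not tested, nor was that of cell makeup in their differences.

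**Figure D5:**
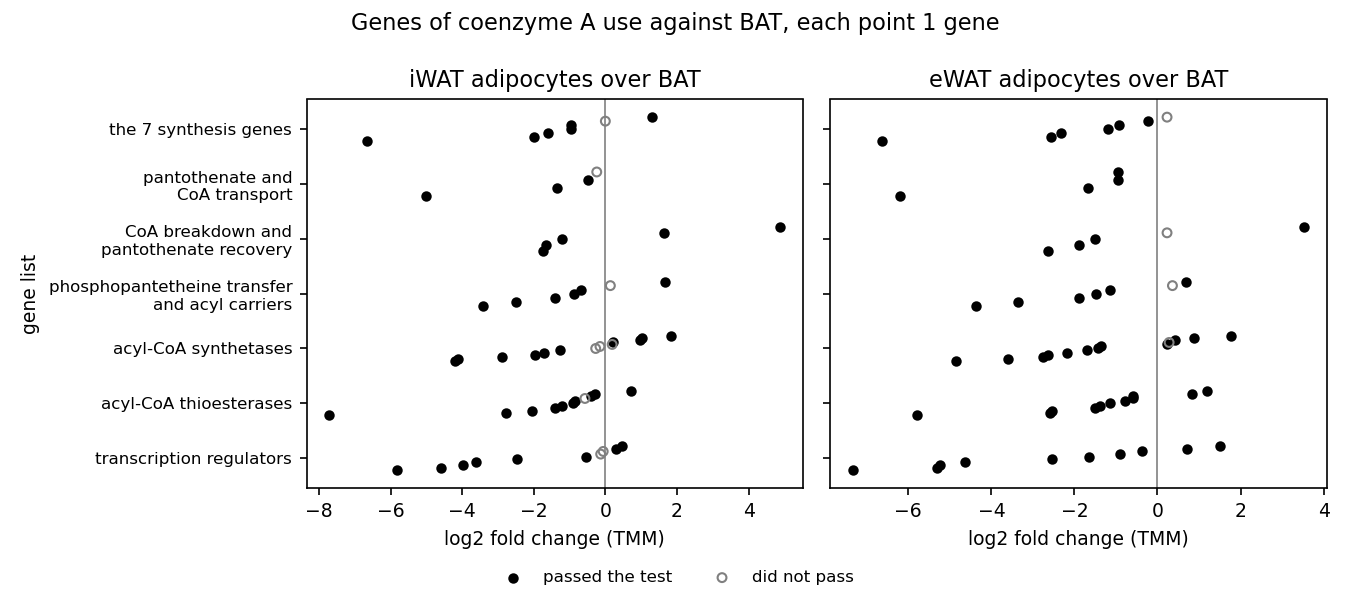
Log2 fold change (TMM) of each tested gene for iWAT adipocytes over BAT and eWAT adipocytes over BAT, by gene list, with genes past the edgeR threshold filled and the others open. Pank1 (-6.66), Acot11 (-7.71), Slc25a42 (-5.02) and Ppara (-5.83) stand furthest to the left of their lists for iWAT adipocytes over BAT, while Vnn3 stands furthest right. Slc27a2, at the floor in white adipocytes, is left out.

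The genes whose level followed each pathway gene most closely were found by Pearson's r on log2(RPKM + 0.1) over the 18 samples, among 14157 genes. Since the points share tissue and library, these values describe a shared tissue pattern. Pank1 was closest to Hadha (r = 0.998), the alpha subunit of the mitochondrial trifunctional protein of fatty acid oxidation, to Slc27a2 (0.998) and to A530050N04Rik (0.997). Slc27a2 and A530050N04Rik averaged at most 0.0117 RPKM in the white adipocytes, against 12.4 and 6.99 RPKM in BAT, so they passed the level filter through BAT alone and their r says only that they, too, were high there and near 0 elsewhere. Hadha had 141 RPKM in BAT, 21.0 RPKM in iWAT adipocytes and 22.3 RPKM in eWAT adipocytes on average. Pank3 was closest to Pik3r1 (0.983), a regulatory subunit of the insulin-signalling lipid kinase, to Ermp1 (0.980) and to Zhx1 (0.979). Pank2 was closest to Athl1 (0.981), Ss18 (0.981) and Lix1l (0.980).

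Coasy was closest to Letm1 (0.996), a mitochondrial inner membrane protein, to Coq9 (0.995) of coenzyme Q synthesis and to Ifi27l1 (0.993). Ppcs was closest to Acad8 (0.987), of valine breakdown, to Pigq/Nhlrc4 (0.985) and to Echs1 (0.985), a hydratase of fatty acid oxidation. Ppcdc was closest to Dand5 (0.969), Stard7 (0.964) and Slc25a33 (0.961), and Pank4 to Tmem149 (0.897), Dpp8 (0.896) and Ppp4r1l-ps (0.888). Tmem149 averaged 0.599 RPKM in iWAT adipocytes, 0.732 RPKM in eWAT adipocytes and 2.85 RPKM in BAT. Ppp4r1l-ps averaged 0.868, 0.906 and 1.42 RPKM in that order. Both thus passed the level filter only through their BAT level. Among the pathway genes themselves, r was 0.974 for Ppcs and Coasy, 0.928 for Pank1 and Coasy and 0.894 for Pank2 and Pank3. It was -0.870 for Pank1 and Pank2 and -0.747 for Pank1 and Pank3. All r values rest on RPKM without TMM scaling. With TMM, Pank2 had -0.00 for iWAT adipocytes over BAT and -0.24 for eWAT adipocytes over BAT, so its r values depend on the scaling.

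Other cell types also differed between the samples. The endothelial marker sum was 99.5 to 280 RPKM in iWAT adipocytes, 33.4 to 71.2 RPKM in eWAT adipocytes and 68.7 to 99.6 RPKM in BAT. The erythroid sum was 116 to 563, 107 to 244 and 511 to 1123 RPKM, the fibroblast and progenitor sum 508 to 650, 134 to 250 and 24.8 to 42.2 RPKM, and the nerve sheath sum 5.84 to 16.1, 0.452 to 0.956 and 50.7 to 66.8 RPKM. Mesothelial markers summed to at most 0.0808, 2.65 and 0.0673 RPKM, and T and B cell markers to at most 1.85, 1.26 and 1.001 RPKM. Their part in the results above was not tested.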

How the data were processed

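RNA was sequenced from 18 samples (6 iWAT adipocytes, 6 eWAT adipocytes, 6 BAT), prepared with the NEBNext Ultra kit. The authors deposited, for each sample, a read count and an RPKM value per transcript entry on build mm9. The submitters' processing notes name cutadapt 1.16 and HISAT2 2.1.0, and the counting program, annotation and strand setting are not given in the sources used here. Total counts ran from 24655056 to 42518483 reads per sample. No pair of samples agreed within sampling noise (the smallest chi-square per degree of freedom was 15.3). Since the labels do not say outright that each sample of a tissue is another mouse, p-values measure the spread between these samples, which may in part be technical.

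The pathway genes, lists and tests were chosen with earlier results of these data known. For each symbol the entry with the highest mean RPKM was kept. A filter kept genes whose count averaged 10 or more in a comparison's 12 samples, and the test was that of edgeR 4.0.16 (quasi-likelihood, TMM, Benjamini-Hochberg over all genes, threshold 0.05) in R 4.3.3, tested on simulated counts beforehand. DESeq2 1.42.0 and limma 3.58.1 (mean RPKM of at least 0.1, pseudocount 0.1 or 1) were alternatives. Tables and figures were made in Python 3.11.15. From each list the text names the 3 genes with the highest mean RPKM and, per comparison, up to 2 genes past the threshold with the largest change in each direction. For each pathway gene it names the 3 genes most like it, with a mean RPKM of at least 1. Promoter windows and microRNAs are RefSeq sequences (GRCm38.p6), and the windows were placed in NCBIM37 by exact match.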

Additional observations from a re-analysis of the deposited data

Results flagged for a closer look

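In BAT, the sample of mouse 16 stood apart from the other 5 in the level of the less abundant kinase genes. Its Pank2 level was 3.14 RPKM, with the next sample at 3.49 RPKM and the highest at 3.67 RPKM. Its Pank4 level was 2.56 RPKM, with the next at 3.15 RPKM and the highest at 3.47 RPKM. These gaps are 0.650 and 0.645 of the range, past the 95% limit of Dixon's test for 6 values. With 21 gene and tissue groups tested, chance gives about 1.05 such cases. This sample also had the lowest BAT level of Pank1, Ppcs, Ppcdc and Coasy, and leaving it out changed no call for the 7 genes.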

How the results depend on the processing

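The numbers of the 7 genes that differed were 5 between the white depots, 6 between iWAT adipocytes and BAT and 6 between eWAT adipocytes and BAT. Leaving out any 1 sample gave 5 to 5, 6 to 6 and 6 to 6, and Pank4 between the white depots ranged from -0.05 to 0.02. DESeq2 gave 5, 6 and 6, and limma on RPKM gave 5, 7 and 7. With lane as a covariate, 5 differed between the white depots. With a log2 fold change of at least 1 also required, 1, 4 and 4 of the 7 differed. Over all genes, 4892 of 19623, 7363 of 19745 and 9830 of 20076 then differed. A replicate block on mouse number gave 5, 6 and 5, as did dropping the filter on reads, in both cases without Pank2 for eWAT adipocytes over BAT. Only 1 of 6, 1 of 4 and 0 of 4 same-numbered pairs had a correlation over 0.1, so the samples are treated as sharing only a number. By total count alone 4, 5 and 6 differed. Over all genes, total count alone moved the calls for iWAT adipocytes over BAT from 7528 higher and 7336 lower to 13703 and 3054. For eWAT adipocytes over BAT it moved them from 8243 and 8318 to 12965 and 4061.

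The direction of Pank2 for eWAT adipocytes over BAT reversed by total count alone (0.67) and in limma (0.34 and 0.28), and the cause was not tested. That of Pank4 between the white depots reversed without the filter on reads (0.01) and without the eWAT samples of mice 1 and 3 (0.04, chosen after seeing the data, as was leaving out the BAT samples of mice 1, 5, 16 and 18). Without those eWAT samples 4 genes differed between the white depots and 7 between eWAT adipocytes and BAT. Without those BAT samples 6 and 6 did.

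Shares of kinase reads without division by length were 0.487% Pank1, 92.9% Pank3 and 1.156% Pank4 in iWAT adipocytes, 1.01%, 87.2% and 2.45% in eWAT adipocytes, and 52.0%, 39.7% and 2.42% in BAT, with 5.81% Pank2. Summing the entries of a symbol moved Pank4 to 4.02% in iWAT adipocytes and 5.58% in BAT. Depth limits Pank1 in white adipocytes most, with as few as 79 reads.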
